A study of Mus musculus with 4 samples.

Results

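Hematopoietic stem cells (HSC) and multipotent progenitors (MPP) of the mouse were compared here for 32 genes of cholesterol and fatty acid synthesis and of lipoprotein uptake. The genes were picked by name and function, and each was read through every probe set that the array's annotation assigns to that gene alone. Of the 32 genes, 31 had such a probe set, 76 in all, among 45037 probe sets of the array without controls. Acat2, a cytosolic thiolase at the entry to the mevalonate pathway, had its promoter searched, and its expression was not analysed here. HSC were CD34(-)KSL cells and MPP were CD34(+)KSL cells, both purified by cell sorting from animals of C57BL/6 background. KSL cells are immature blood-forming cells gated on c-Kit, a lack of lineage markers and an additional antigen. Each group held 2 samples called biological replicates, and neither age nor treatment of the animals is given in the labels. Because the labels do not say that replicates came from separate animals, p-values measure only the spread between these samples. Each sample gave RNA equivalent to 3000 cells for 1 Affymetrix Mouse430_2 array, on which a probe set reads a transcript as an intensity in arbitrary units.

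Cells obtain cholesterol by making it from acetyl-CoA through mevalonate and squalene, or by taking up lipoproteins through surface receptors. The sterol regulatory element-binding proteins (SREBPs) switch on both routes. When sterols are scarce, SCAP escorts the SREBPs out of the endoplasmic reticulum for activation, and when sterols are plentiful the INSIG proteins hold that complex back. Fatty acids are built from the same acetyl-CoA by acetyl-CoA carboxylase and fatty acid synthase, then elongated and desaturated. Dividing cells need both kinds of lipid to build new membrane.

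Promoters of 5 members are shown. Hmgcs1 was picked as the enzyme whose window matched the sterol element as searched. Insig1 was picked as the feedback gene, Fasn as the fatty acid synthase, and Ebp and Vldlr as the genes that were lower in HSC. Each promoter shown is the stretch of 250 bases before the most upstream gene start in the RefSeq table of build GRCm38.p6. It is written 5′ to 3′ along the gene's own strand. The windows lie at chr13:119690101-119690350 (plus strand, Hmgcs1), chr5:28071162-28071411 (plus strand, Insig1), chr11:120824548-120824797 (minus strand, Fasn), chrX:8193513-8193762 (minus strand, Ebp) and chr19:27216234-27216483 (plus strand, Vldlr). Capitals mark matches on either strand to TCACNCCAC (the letters searched for the sterol regulatory element), CCAAT (the box bound by NF-Y, a usual partner of the SREBPs) or CACGTG (the E-box).
Hmgcs1: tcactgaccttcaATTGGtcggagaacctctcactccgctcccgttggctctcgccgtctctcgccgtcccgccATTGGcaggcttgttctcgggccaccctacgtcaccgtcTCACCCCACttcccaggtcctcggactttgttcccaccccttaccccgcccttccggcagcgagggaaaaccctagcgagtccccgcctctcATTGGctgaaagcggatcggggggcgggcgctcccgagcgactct
Insig1: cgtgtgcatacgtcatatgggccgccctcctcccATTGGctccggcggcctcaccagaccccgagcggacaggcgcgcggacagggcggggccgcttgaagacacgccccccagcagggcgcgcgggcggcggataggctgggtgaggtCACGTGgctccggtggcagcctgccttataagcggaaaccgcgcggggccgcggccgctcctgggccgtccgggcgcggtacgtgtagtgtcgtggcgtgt
Fasn: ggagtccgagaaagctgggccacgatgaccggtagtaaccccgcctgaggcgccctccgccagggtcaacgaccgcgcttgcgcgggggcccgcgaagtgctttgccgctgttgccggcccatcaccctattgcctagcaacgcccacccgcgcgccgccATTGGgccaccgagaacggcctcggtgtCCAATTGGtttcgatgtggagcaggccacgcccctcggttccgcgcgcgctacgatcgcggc
Ebp: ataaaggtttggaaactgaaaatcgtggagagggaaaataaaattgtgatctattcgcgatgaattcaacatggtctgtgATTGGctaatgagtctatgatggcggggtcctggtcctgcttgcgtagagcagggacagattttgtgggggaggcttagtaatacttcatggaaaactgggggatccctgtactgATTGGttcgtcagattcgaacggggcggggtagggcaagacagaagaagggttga
Vldlr: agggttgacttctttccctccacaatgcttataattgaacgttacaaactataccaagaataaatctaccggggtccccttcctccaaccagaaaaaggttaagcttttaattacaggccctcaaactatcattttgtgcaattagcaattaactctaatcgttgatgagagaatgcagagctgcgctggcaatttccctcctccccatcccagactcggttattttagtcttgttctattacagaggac
The CCAAT box, which reads ATTGG on the other strand, was found in 20 of the 26 members with a promoter in the table (76.9%), against 37.5% of all 27025 genes and 39.5% of the 17492 protein-coding genes. The table holds no promoter for Stard4, Fdft1, Sqle, Fdps, Scd1 and Scd2, so these members were not searched. Where the table gives a gene several starts, a match in any window counted. Ebp has 2 such boxes and Hmgcs1 and Fasn have 3 each, with 2 of those in Fasn overlapping. The sterol element as spelled matched in 1 of 26 members (3.85%), against 1.22% of all genes. That member was Hmgcs1, where the match lies 137 to 129 bases before the start. Other spellings of the element were not searched. The E-box matched in 5 of 26 members (19.2%), against 6.86% of all genes. In the Vldlr window shown no pattern matched, and a second Vldlr window of the table holds a CCAAT box. A match is a description of the letters, and its use in these cells was not measured. Members with a CCAAT match had a median log2 difference between HSC and MPP of -0.02 (20 genes tested) and those without of -0.17 (5 genes tested).

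Most genes of the pathway were not called as different between HSC and MPP. At a limma adjusted p under 0.05 over all probe sets, 1 member was higher in HSC (Stard4, 3.23% of 31) and 2 were lower (Ebp and Vldlr, 6.45%). Of all 12382 genes tested, 7.71% were called higher and 5.90% lower in the same fit, so the members' shares were near or below the background. Of 20 members with several tested probe sets, 11 had all of them on the same side of 0 and 9 had them on both. The median log2 difference (HSC minus MPP) of the 31 members was -0.08, against 0.10 for all genes. With each gene read as the mean of all its tested probe sets, the medians were 0.086 and 0.11, so the sign of the members' median depended on the probe sets read. In size, without sign, the median difference was 0.26 for the members and 0.35 for all genes. The 95% interval of the difference lay within 2-fold either way for 19 members (61.3%), against 50.2% of all genes. In 13 members (41.9%) the values of HSC and MPP did not overlap, against 58.7% of all genes, with 8 of the 13 higher and 5 lower in HSC. Of the 76 probe sets of the members 66 were tested, with 1 called higher and 5 lower, against 5.96% and 4.65% of all probe sets. Of the 5 called lower, 4 were of the same gene, Vldlr, and 1 of Ebp. All 31 representative probe sets, for each gene the tested one with the highest mean, were above the level of bacterial control probe sets on every array.

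**Figure D1:**
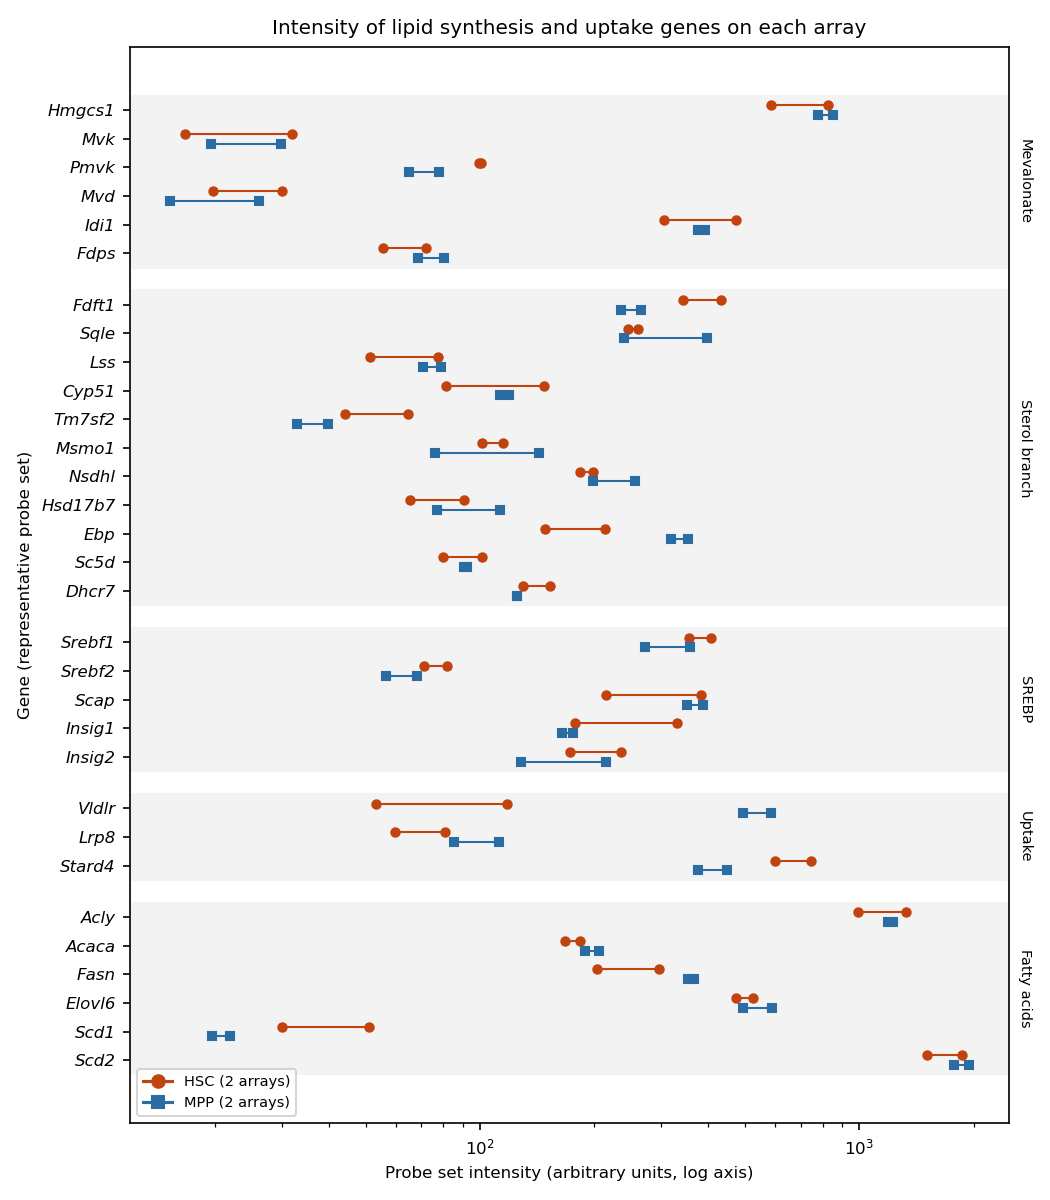
Intensity of each gene's representative probe set on each array (arbitrary units, log axis), with the HSC arrays as circles drawn above the MPP arrays as squares. A line joins the 2 arrays of a group. Levels of different probe sets cannot be set against each other. The groups lie furthest apart for Vldlr and overlap for 18 of the 31 genes.

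**Figure D2:**
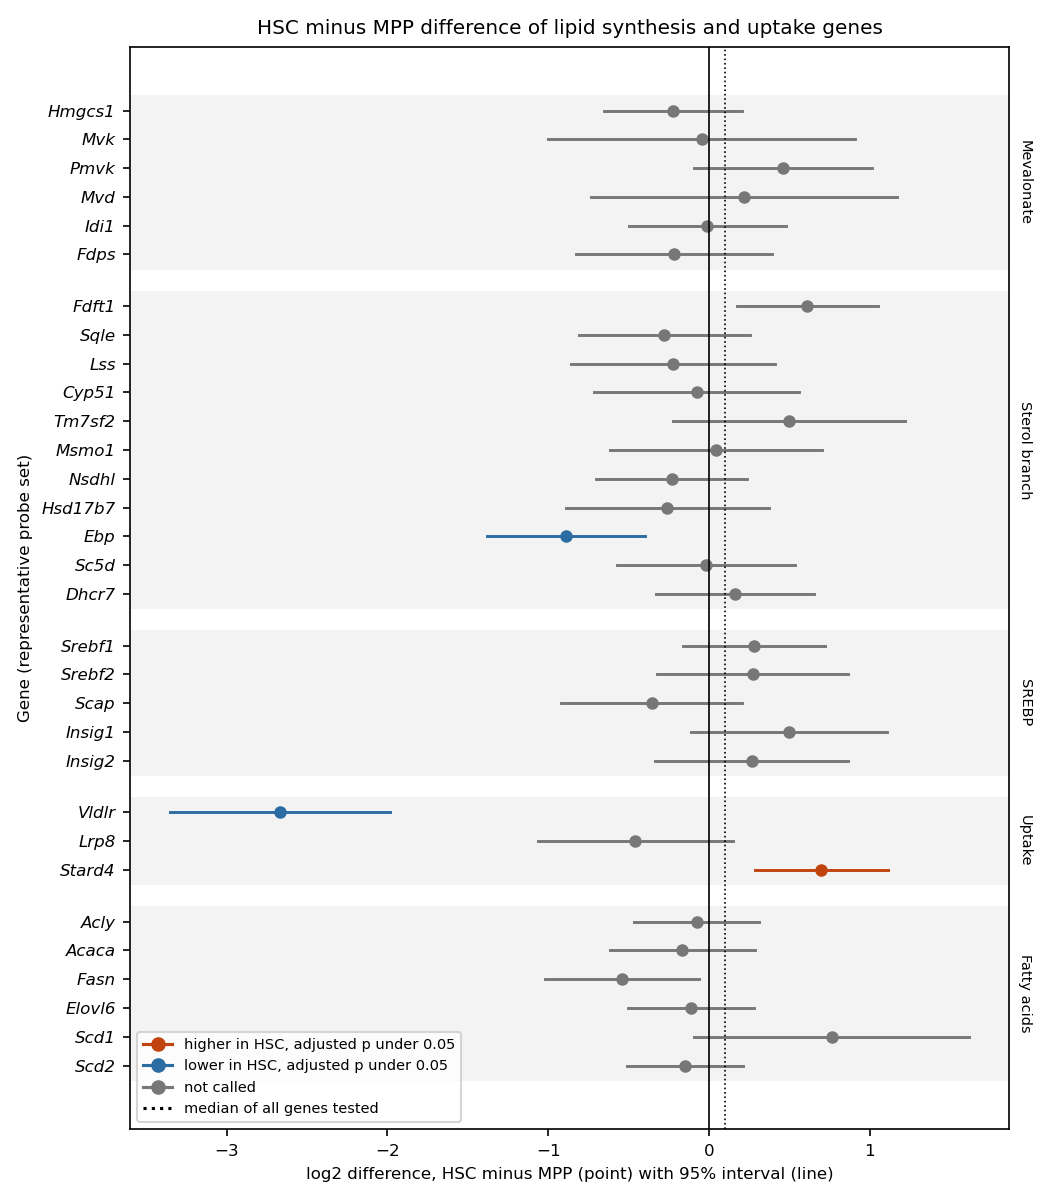
Difference between HSC and MPP for each gene on the log2 scale (point) with its 95% interval from limma (line), ordered by role. Stard4 is higher and Ebp and Vldlr are lower in HSC, and 28 genes are not called. The dotted line is the median of all genes tested, 0.10.

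The sort could be read in the same arrays, and several differences in other genes went with the groups. All 6 genes chosen to check the sort were called, against 13.6% of all genes called in either direction. Kit, Procr and Slamf1 were higher and Cd34, Flt3 and Cd48 lower in HSC. CD34 was the antigen that parted the groups, so its gene is no independent check, and c-Kit gated both groups. Cd34 read 469 and 235 units on the HSC arrays, against 1967 and 2302 on the MPP arrays, and Slamf1, a surface receptor used to mark HSC, read 366 and 400 units on the HSC arrays, against 30.2 and 37.5 on the MPP arrays. Cell division genes gave lower values on the HSC arrays, 7 of 8 listed genes having a probe set and all 7 called, with a summed intensity of 1631 to 1946 units on the HSC arrays and 8204 to 9866 on the MPP arrays. Erythroid markers (3 of 4 with a probe set, all 3 called higher in HSC) summed to 930.1 to 1624 units on HSC and 45.4 to 66.5 on MPP arrays. Macrophage markers (4 of 4) summed to 133 to 196 on HSC and 450.0 to 695 on MPP arrays, with Csf1r called lower in HSC. Most of that gap lay in Csf1r, at 54.0 and 30.9 units on the HSC arrays, against 282 and 552 on the MPP arrays. Its other tested probe sets had log2 differences of -2.98 with a call and -0.30 without. Cd68 stood at -0.82, Adgre1 at 0.12 and Mrc1 at 0.32, none called, so the macrophage markers did not share a direction. Stromal markers (4 of 4) summed to 187 to 202 on HSC and 73.4 to 83.0 on MPP arrays, with Col1a2 called higher in HSC. Most of that gap lay in Col1a2, at 128 and 138 units on the HSC arrays, against 26.6 and 31.2 on the MPP arrays. Its other probe sets were too dim to test, as were those of Col1a1. Cxcl12 and Lepr, both dim, had log2 differences of 0.46 and 0.31 without a call. Adipocyte markers (4 of 5 with a probe set) summed to 30.1 to 38.3 on HSC and 22.8 to 35.2 on MPP arrays, and 3 of the 4 were under the bacterial control level on every array. The hepatocyte list summed to 27.3 to 46.2 on HSC and 24.3 to 36.5 on MPP arrays, the B cell list to 164 to 179 on HSC and 138 to 173 on MPP arrays, and the T cell list to 5.64 to 21.1 on HSC and 6.90 to 15.9 on MPP arrays, with no gene of these lists called. HSC replicate 2 had a 3′ to 5′ ratio of actin signal of 9.42, against 5.26 on HSC replicate 1 and 4.99 and 5.01 on the MPP arrays. For Gapdh the gap was smaller, with a ratio of 5.81, against 4.88 on HSC replicate 1 and 5.15 and 5.01 on the MPP arrays. What part these differences have in any result below was not tested, and in such samples fewer cells of a type cannot be told apart from less RNA per cell.

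Lipoprotein uptake held the largest difference among the members. Vldlr, the very low density lipoprotein receptor, which also serves as a receptor for reelin, was 6.36-fold lower in HSC. Its representative probe set, 1434465_x_at, read 118 and 53.1 units on the HSC arrays, against 586 and 495 on the MPP arrays. Both HSC arrays lay far below both MPP arrays, with means of 85.6 ± 46.0 units in HSC and 540.3 ± 64.2 units in MPP (SD, n = 2 each). The log2 difference was -2.67 (SE 0.31, limma adjusted p = 4.13e-04), with a 95% interval of -3.35 to -1.99.

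Other probe sets of Vldlr gave the same direction. On 1438258_at the gene read 35.4 and 36.1 units on the HSC arrays, against 231 and 149 on the MPP arrays, with a difference on the log2 scale of -2.20 (SE 0.28, limma adjusted p = 7.29e-04). On 1435893_at it read 37.5 and 33.5 units on the HSC arrays, against 166 and 143 on the MPP arrays, with a difference of -1.95 (SE 0.26, limma adjusted p = 9.34e-04). A further pair had the same sign: 1417900_a_at read 24.7 and 20.4 units on the HSC arrays, against 78.3 and 92.5 on the MPP arrays and was called (log2 difference -1.68, SE 0.31, limma adjusted p = 0.00620), and 1442169_at read 28.8 and 19.5 units on the HSC arrays, against 51.8 and 38.6 on the MPP arrays and was not (log2 difference -0.77, SE 0.36, limma adjusted p = 0.226). Of 5 tested probe sets, 4 were therefore called lower, and on all 5 the HSC values lay below the MPP values. The sixth, 1451156_s_at, was too dim to test, at 17.8 and 1.43 units on the HSC arrays, against 17.5 and 10.3 on the MPP arrays. Probe sets of a gene share the same RNA and are not replicates, and the suffix _x_at or _s_at marks probes that can also bind other transcripts. Cell division genes fell in the same HSC arrays, as given above.

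**Figure D3:**
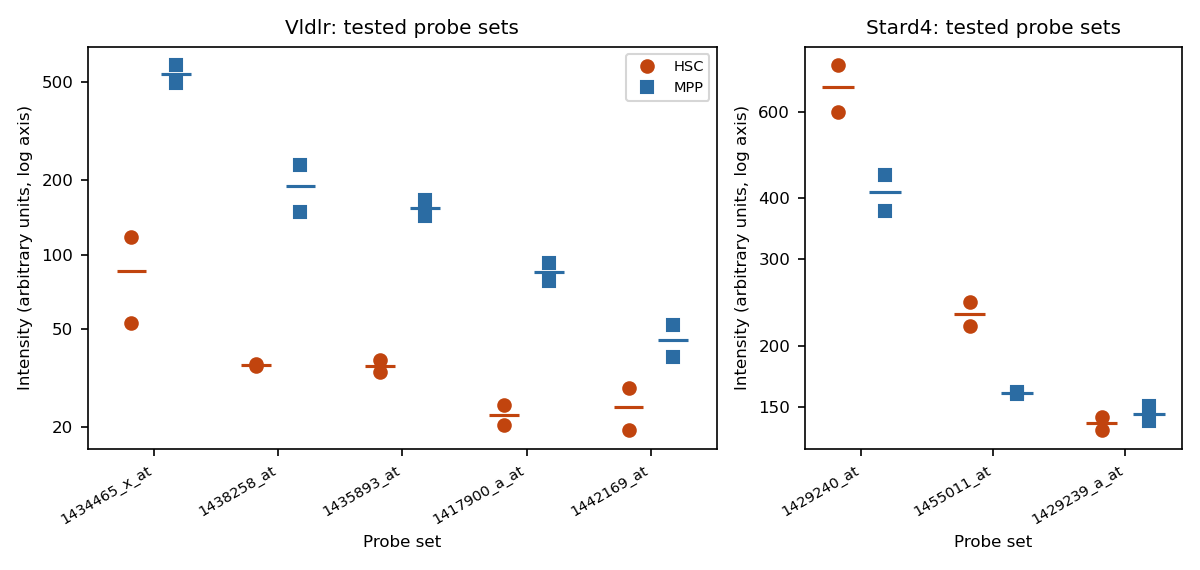
Intensity on each array (arbitrary units, log axis) of the tested probe sets of Vldlr (left) and Stard4 (right), with HSC as circles to the left of MPP as squares and short lines at group means. All 5 Vldlr probe sets are lower in HSC. Of the 3 Stard4 probe sets, 2 are higher in HSC and 1 is slightly lower.

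Lrp8, the reelin receptor most similar to Vldlr in the same receptor family, was not called. It read 59.8 and 80.9 units on the HSC arrays, against 85.3 and 112 on the MPP arrays, with both HSC values below both MPP values, and its log2 difference was -0.46 (SE 0.27, limma adjusted p = 0.344). The 95% interval was -1.06 to 0.15. Its other tested probe set, 1442347_at, read 81.1 and 55.3 units on the HSC arrays, against 106 and 89.2 on the MPP arrays, also without overlap, for a difference of -0.50 (SE 0.28, limma adjusted p = 0.308).

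Stard4, a cytosolic carrier that moves cholesterol between membranes, was the member that rose. Its representative probe set, 1429240_at, read 599 and 746 units on the HSC arrays, against 447 and 376 on the MPP arrays, a 1.62-fold difference in which the groups did not overlap. The log2 difference was 0.70 (SE 0.19, limma adjusted p = 0.0380). Group means were 672 ± 104 units in HSC and 411 ± 50.05 units in MPP (SD, n = 2 each). Another probe set, 1455011_at, pointed the same way without a call, at 245 and 219 units on the HSC arrays, against 159.7 and 161 on the MPP arrays (log2 difference 0.52, SE 0.20, limma adjusted p = 0.139). The remaining probe set, 1429239_a_at, did not: it read 134 and 143 units on the HSC arrays, against 151 and 140.1 on the MPP arrays, overlapping, with a difference of -0.06 (SE 0.21, limma adjusted p = 0.894). The call ended when all probe sets of the gene were averaged (0.38, adjusted p = 0.174), with equal array medians (0.41, adjusted p = 0.176), with dim probe sets kept in (adjusted p = 0.0790) and with a flat prior variance (adjusted p = 0.186). A fit without an array has 1 array in that group, which is assumed to vary like the other group, so such a p does not measure its own spread. Leaving out HSC replicate 2 gave 0.54 (adjusted p = 0.0928), MPP replicate 1 gave 0.82 (adjusted p = 0.0846) and MPP replicate 2 gave 0.58 (adjusted p = 0.285), each without a call.

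Among the mevalonate pathway enzymes, none of the 6 tested was called by limma in either direction, and none had an unadjusted p under 0.05. Their log2 differences ran from -0.23 to 0.46, with a median of -0.03. Hmgcs1, which makes HMG-CoA from acetyl-CoA units, read 584 and 825 units on the HSC arrays, against 776 and 851 on the MPP arrays. The HSC values spanned the lower MPP value, and the difference was -0.23 (SE 0.19, limma adjusted p = 0.523), with an interval of -0.65 to 0.20. All 4 tested Hmgcs1 probe sets lay between -0.23 and -0.05, and none was called. Idi1, which isomerises isopentenyl diphosphate, read 306 and 473 units on the HSC arrays, against 393 and 375 on the MPP arrays, and the MPP values fell inside the HSC range. Its difference was -0.01 (SE 0.22, limma adjusted p = 0.982), interval -0.50 to 0.48. Fdps, which builds farnesyl diphosphate, the branch point to sterols and prenyl groups, read 71.8 and 55.3 units on the HSC arrays, against 68.5 and 80.5 on the MPP arrays (log2 difference -0.22, SE 0.28, limma adjusted p = 0.685).

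The kinases and the decarboxylase of the pathway gave less certain values. Pmvk, phosphomevalonate kinase, read 99.5 and 101 units on the HSC arrays, against 78.01 and 64.8 on the MPP arrays and was the only enzyme of these 6 whose groups did not overlap, with HSC higher (log2 difference 0.46, SE 0.25, limma adjusted p = 0.296). Mvk, mevalonate kinase, read 32 and 16.7 units on the HSC arrays, against 29.9 and 19.6 on the MPP arrays, and Mvd, the decarboxylase that follows, read 19.7 and 29.98 units on the HSC arrays, against 15.2 and 26.2 on the MPP arrays. Both sets of values overlapped and came close to the bacterial control level of 13.6 to 16.9 units. Their intervals, -1.001 to 0.91 for Mvk and -0.73 to 1.17 for Mvd, reach about 2-fold in at least 1 direction, so a difference of that size lies within them.

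In the sterol branch, which begins with squalene, 1 of 11 enzymes was called lower, none higher, and the median log2 difference was -0.08. The gene called was Ebp, the sterol isomerase known as emopamil-binding protein, which shifts a double bond in the sterol ring late in the pathway. Ebp read 214 and 148 units on the HSC arrays, against 354 and 318 on the MPP arrays, a 1.85-fold difference with no overlap. Group means were 181 ± 46.3 units in HSC and 336 ± 25.5 units in MPP (SD, n = 2 each). Its log2 difference was -0.89 (SE 0.22, limma adjusted p = 0.0278), and it was read by a single probe set. Ebp lost its call when dim probe sets were kept in (adjusted p = 0.0645) or the prior variance was flat (adjusted p = 0.140). It also did so without HSC replicate 2 (-0.64, adjusted p = 0.0675), without MPP replicate 1 (-0.81, adjusted p = 0.148) and without MPP replicate 2 (-0.97, adjusted p = 0.0833).

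Fdft1, squalene synthase, which commits farnesyl diphosphate to sterols, came nearest to a call in the other direction. It read 343 and 432 units on the HSC arrays, against 235 and 265 on the MPP arrays, so that every HSC value exceeded every MPP value, and its log2 difference was 0.61 (SE 0.20, limma adjusted p = 0.0778). With an unadjusted p of 0.0106 it missed the threshold over all probe sets. Without HSC replicate 1 the log2 difference was 0.78, and the adjusted p of 0.0255 passed with 1 HSC array left and the spread taken from the MPP pair and the prior. Its second probe set read 101 and 58.1 units on the HSC arrays, against 75.9 and 42.2 on the MPP arrays, overlapping, with a difference of 0.40 (SE 0.35, limma adjusted p = 0.536).

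Sqle, squalene epoxidase, read 261 and 246 units on the HSC arrays, against 239.6 and 396 on the MPP arrays, where the MPP values lay on either side of the HSC pair (log2 difference -0.28, SE 0.24, limma adjusted p = 0.526). The probe sets of Lss, which folds the epoxide into lanosterol, disagreed. On 1420013_s_at the gene read 77.3 and 51.3 units on the HSC arrays, against 78.8 and 70.8 on the MPP arrays (log2 difference -0.22, SE 0.29, limma adjusted p = 0.688), and on 1426913_at it read 41.5 and 68.4 units on the HSC arrays, against 16.7 and 26.1 on the MPP arrays (log2 difference 1.14, SE 0.38, limma adjusted p = 0.0870), with only the second free of overlap. Cyp51, the demethylase of lanosterol, read 81.4 and 147 units on the HSC arrays, against 113 and 119 on the MPP arrays, and the MPP values again fell inside the HSC range (log2 difference -0.08, SE 0.29, limma adjusted p = 0.902). Msmo1, the methyl sterol oxidase, read 101 and 115 units on the HSC arrays, against 76.2 and 143 on the MPP arrays, with both HSC values inside the MPP range (log2 difference 0.04, SE 0.30, limma adjusted p = 0.95).

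Among the other late enzymes none was called. Nsdhl, a sterol dehydrogenase, read 199 and 183 units on the HSC arrays, against 198 and 256 on the MPP arrays, barely overlapping (log2 difference -0.23, SE 0.21, limma adjusted p = 0.549). Hsd17b7, a ketosteroid reductase, read 65.5 and 90.7 units on the HSC arrays, against 77.2 and 113 on the MPP arrays and had a difference of -0.26 (SE 0.29, limma adjusted p = 0.630), with its 3 dimmer probe sets between -0.08 and 0.38. Tm7sf2, a sterol reductase, read 64.7 and 44.1 units on the HSC arrays, against 39.7 and 32.9 on the MPP arrays with no overlap, yet its interval of -0.22 to 1.22 included 0. Sc5d, a sterol desaturase, read 101 and 79.7 units on the HSC arrays, against 90.5 and 92.1 on the MPP arrays and had a difference of -0.02 (SE 0.25, limma adjusted p = 0.973), whereas its dimmer probe sets stood at 0.31 and, for 1424709_at, 0.92 (SE 0.41, limma adjusted p = 0.199). Sc5d on 1424709_at read 31.5 and 29.1 units on the HSC arrays, against 12.5 and 13.8 on the MPP arrays, without overlap. Dhcr7, the reductase of the last step from 7-dehydrocholesterol, read 129 and 153 units on the HSC arrays, against 125 and 125 on the MPP arrays, just without overlap (log2 difference 0.16, SE 0.22, limma adjusted p = 0.706).

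The genes that control the pathway were not called either. Of 5 tested, 4 had a positive log2 difference, the median was 0.27, and no unadjusted p was under 0.05. With arrays scaled to equal medians, where the median of all genes was -0.18 in place of 0.10, 3 of these 4 lay within 0.02 of 0 and Srebf1 and Insig2 became slightly negative. Srebf1, which encodes the SREBP form tied to fatty acid genes, read 406 and 356 units on the HSC arrays, against 273 and 357 on the MPP arrays (log2 difference 0.28, SE 0.20, limma adjusted p = 0.431). Srebf2, whose product acts mainly on cholesterol genes, read 71.3 and 81.9 units on the HSC arrays, against 56.7 and 68.3 on the MPP arrays, with HSC values above MPP values (log2 difference 0.27, SE 0.27, limma adjusted p = 0.585). Its 2 probe sets shared the sign, and neither was called.

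Insig1 and Scap rested on which HSC array was read. Insig1, itself a target of the SREBPs, read 178 and 331 units on the HSC arrays, against 176 and 165 on the MPP arrays, so that HSC replicate 2 stood high and replicate 1 lay next to the MPP values. Its log2 difference was 0.50 (SE 0.27, limma adjusted p = 0.305). Without HSC replicate 1 it was 0.94 with a call (adjusted p = 0.0140) that set 1 HSC array against the MPP pair, and without HSC replicate 2 it was 0.06. Scap, the escort protein, read 383 and 214 units on the HSC arrays, against 352 and 387 on the MPP arrays, where HSC replicate 2 was the low array and replicate 1 lay between the MPP values (log2 difference -0.36, SE 0.25, limma adjusted p = 0.432), and its dim second probe set stood at 0.10. Without HSC replicate 1 it was -0.77 (adjusted p = 0.0257), and without HSC replicate 2 it was 0.05. In these fits the spread of HSC was not measured, so the calls of Insig1 and Scap rest on a single HSC array. HSC replicate 2 is the array with the high actin ratio given above. Insig2, the other INSIG gene, read 235 and 172 units on the HSC arrays, against 215 and 128 on the MPP arrays, and its 3 probe sets lay between 0.10 and 0.27 with no call.

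For fatty acid synthesis, none of the 6 genes was called by limma, 1 had an unadjusted p under 0.05, and the median log2 difference was -0.13. Acly, which supplies cytosolic acetyl-CoA from citrate, read 992 and 1325 units on the HSC arrays, against 1228 and 1191 on the MPP arrays, with both MPP values inside the HSC range (log2 difference -0.08, SE 0.18, limma adjusted p = 0.834, interval -0.47 to 0.31), and its 4 dimmer probe sets ranged from -0.25 to 0.67 with no call. Acaca, the acetyl-CoA carboxylase of the cytosol, read 167 and 184 units on the HSC arrays, against 189.6 and 205 on the MPP arrays (log2 difference -0.17, SE 0.20, limma adjusted p = 0.668). Both HSC values were below both MPP values, the interval of -0.62 to 0.28 included 0, and the dimmer of its probe sets stood at 0.04.

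Fasn, fatty acid synthase, was the gene with the low unadjusted p. It read 203 and 297 units on the HSC arrays, against 354 and 367 on the MPP arrays, both HSC values under both MPP values, and its log2 difference was -0.54 (SE 0.22, limma adjusted p = 0.151). The single Fasn probe set was called lower with equal array medians (-0.83, adjusted p = 0.0278) and without HSC replicate 2 (-0.81, adjusted p = 0.0193), where 1 HSC array was left and its spread was taken from the MPP pair and the prior. Elovl6, which lengthens the product of Fasn, read 524 and 473 units on the HSC arrays, against 493 and 587 on the MPP arrays, overlapping (log2 difference -0.11, SE 0.18, limma adjusted p = 0.754). Its dimmest probe set, 1442656_at, went the other way at 88.5 and 106 units on the HSC arrays, against 73.2 and 66.02 on the MPP arrays (log2 difference 0.45, SE 0.25, limma adjusted p = 0.317).

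Of the stearoyl-CoA desaturases, which introduce the first double bond, Scd2 differed by less than the replicate spread and Scd1 was uncertain. Scd2 read 1512 and 1867 units on the HSC arrays, against 1781 and 1945 on the MPP arrays on its brightest probe set (log2 difference -0.15, SE 0.16, limma adjusted p = 0.633), with an interval of -0.51 to 0.21, and 0.25 and 0.34 on its dimmer probe sets. Scd1 read 30.1 and 51.1 units on the HSC arrays, against 19.6 and 21.9 on the MPP arrays, higher in both HSC arrays than in either MPP array. Its log2 difference of 0.76 (SE 0.39, limma adjusted p = 0.261) had an interval of -0.09 to 1.62, and its second probe set stood at 0.29 (SE 0.46, limma adjusted p = 0.750). Fold changes of probe sets this dim are understated by the pseudocount of 6.01 units.

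Taking the 23 enzymes of synthesis as a group by their representative probe sets, 22 were not called, with log2 differences between -0.54 and 0.76. For 15 of those 22 the 95% interval on that probe set lay within 2-fold either way. Dimmer probe sets of Lss and Sc5d stood outside that range of differences, at 1.14 and 0.92, also without a call. Of all genes tested, 13.6% were called in either direction, and 50.2%, called or not, had an interval within 2-fold. A p that misses the threshold does not show that the groups were alike, and the number of arrays, 2 a group, limits the precision. The cell division genes of the same arrays had log2 differences of -2.81 to -2.10 on their representative probe sets. A dimmer Bub1 probe set stood at -0.76 without a call. Any link between these genes and the enzymes was not tested.

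Members called in any setting were 7, and their differences moved with the choice of array and scaling. Vldlr was called lower in all 14 alternatives, with log2 differences from -3.20 to -1.85 and adjusted p of at most 0.0323. Ebp kept its sign in all 14 and its call in 9. Stard4 kept its sign in all 14 and its call in 7. The remaining 4 (Fdft1, Fasn, Insig1 and Scap) were called in 1 or 2 alternatives each, and Scap also changed sign in 1.

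**Figure D4:**
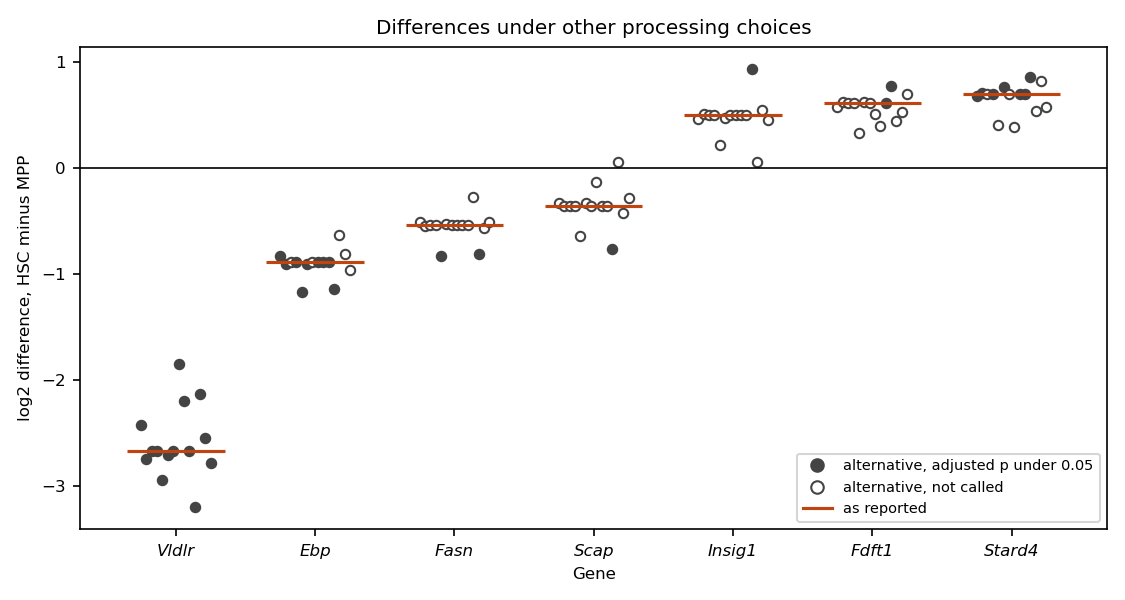
Difference between HSC and MPP on the log2 scale for the 7 genes called in any setting, with each circle 1 of 14 alternative settings, filled where the adjusted p was under 0.05, and the line at the value reported. Vldlr is filled throughout, between -3.20 and -1.85.

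Around the members, 80 other genes of lipid metabolism were listed by role, of which 73 had a probe set and 67 were tested. Of these, 6 were called higher (8.96%) and 3 lower (4.48%) in HSC, beside 7.71% and 5.90% of all genes, and their median log2 difference was 0.10, equal to that of all genes. Of the 9 genes called, 4 feed or reshape fatty acids. Acss2, which turns acetate into acetyl-CoA in the cytosol and nucleus, read 508 and 629.9 units on the HSC arrays, against 292 and 259 on the MPP arrays, with a difference on the log2 scale of 1.02 (SE 0.19, limma adjusted p = 0.00632). Fads1, a desaturase of polyunsaturated fatty acids, read 406 and 504 units on the HSC arrays, against 182 and 181 on the MPP arrays, a difference of 1.29 (SE 0.19, limma adjusted p = 0.00205). On these probe sets the HSC arrays lay well above the MPP arrays for both genes. Fads1 was called in all 14 alternatives and Acss2 in 11. The other tested Fads1 probe set, which was dimmer, shared the sign without a call (log2 difference 0.51, limma adjusted p = 0.292). The other tested Acss2 probe sets, also dimmer, shared its sign. The brighter was called, at 0.90 (limma adjusted p = 0.0239), and the dimmest was not, at 0.69 (limma adjusted p = 0.478).

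Of the 4 tested elongases in this list, Elovl7 was higher, Elovl5 was lower, and the other two were not called. Elovl7, which extends long saturated chains, read 116 and 110.2 units on the HSC arrays, against 40.8 and 50.7 on the MPP arrays and was higher in HSC (log2 difference 1.21, SE 0.26, limma adjusted p = 0.0150). That reading came from an _x_at probe set. The other tested Elovl7 probe sets, all dimmer, shared its sign without a call, at 0.74 (limma adjusted p = 0.156), 1.31 (limma adjusted p = 0.0945) and 0.94 (limma adjusted p = 0.197). Elovl5, which extends polyunsaturated chains, read 995 and 965 units on the HSC arrays, against 1947 and 1743 on the MPP arrays and was lower (log2 difference -0.91, SE 0.15, limma adjusted p = 0.00393), and its second probe set was also called, at -0.74. Elovl5 was called in 12 alternatives and Elovl7 in 10. Settings that lost the Elovl7 call included the mean of all tested probe sets and the fit without _x_at, _s_at and _a_at probe sets.

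Genes of glycerolipid synthesis, of sterol reduction, of enzyme degradation and of fatty acid transport held the other calls. Agpat3, an acyltransferase of phospholipid synthesis, read 81.8 and 103 units on the HSC arrays, against 39.8 and 14.5 on the MPP arrays (log2 difference 1.67, SE 0.39, limma adjusted p = 0.0216). That reading came from an _s_at probe set. The other tested Agpat3 probe sets shared its sign without a call, at 0.65 (limma adjusted p = 0.301) and 0.58 (limma adjusted p = 0.493). The Agpat3 call was lost with the mean of all tested probe sets and without _x_at, _s_at and _a_at probe sets. The phosphatidate phosphatase gene Lpin1 read 269 and 206 units on the HSC arrays, against 128 and 139.6 on the MPP arrays (log2 difference 0.79, SE 0.22, limma adjusted p = 0.0442). Marchf6, an E3 ubiquitin ligase that degrades squalene epoxidase, read 1259 and 1236 units on the HSC arrays, against 744 and 725 on the MPP arrays (log2 difference 0.76, SE 0.15, limma adjusted p = 0.0106). Lbr, a nuclear envelope protein with sterol reductase activity, was lower, at 1159 and 994 units on the HSC arrays, against 1599 and 1851 on the MPP arrays (log2 difference -0.68, SE 0.16, limma adjusted p = 0.0242). Fabp5, a fatty acid carrier, was lower too, at 1559 and 2119.8 units on the HSC arrays, against 3135 and 2962 on the MPP arrays (log2 difference -0.74, SE 0.17, limma adjusted p = 0.0213). These 5 calls held in 6 (Lpin1) to 10 (Fabp5) of 14 alternatives. None of the 3 tested genes of sterol efflux and LXR signalling was called by limma or had an unadjusted p under 0.05, with log2 differences from -0.02 to 0.15. Nor was any of 10 genes of sterol handling inside the cell called by limma, with log2 differences from -1.11 to 0.35, and no unadjusted p there was under 0.05.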

How the data were processed

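Gene expression was measured in 2 HSC and 2 MPP samples on Affymetrix Mouse430_2 arrays. Per the labels' protocols, total RNA was extracted with ISOGEN and amplified in 2 cycles to biotinylated cRNA. The deposited values are 1 intensity per probe set and array on a linear scale, per the file headers and values. The software behind these values was not given in the sources used here. Each array's trimmed mean was 100.0, so the arrays had been scaled to a common level, and the scaling was kept. Array medians were 26.1 and 26.9 (HSC) and 22.0 and 21.3 (MPP). No scan date or other batch was given.

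Of 45101 probe sets, 64 were controls, 34945 had 1 gene symbol, 932 several and 9160 none, and 34741 matched the RefSeq gene table. Values were tested as log2(intensity + 6.01), after the dimmest 40% of probe sets by mean were dropped, which left 27022. The fit was limma 3.58.1 (R 4.3.3), with lmFit, then eBayes with a variance trend, and Benjamini-Hochberg adjustment over those 27022 probe sets. It had 2 residual and 8.48 prior degrees of freedom. A gene was read by its tested probe set of highest mean (12382 genes), and called at an adjusted p under 0.05. The bacterial control level was the highest signal among 27 Bacillus subtilis control probe sets on an array, 16.9 and 16.7 on HSC and 14.9 and 13.6 on MPP arrays. Tables and motif searches used Python 3.11.15 with pandas 2.3.3 and figures matplotlib 3.10.9. The script was tested on simulated data.

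All members and the other lipid genes called are named by rule, and other probe sets of a member where their sign or call differs. Further probe sets were added after their values were seen. The members, lists and alternatives were chosen with earlier results of these data known. Alternatives changed the pseudocount, filter, scaling, variance trend, probe set rule and arrays used.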

Additional observations from a re-analysis of the deposited data

How the results depend on the processing

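Counts here are of genes called in HSC against MPP. The members gave 1 higher, 2 lower and a median log2 difference of -0.08, and the other lipid genes 6 higher and 3 lower. With no filter the members gave 0 higher and 1 lower, and the other genes 1 lower. With equal array medians the members gave 0 higher and a median of -0.35 (all genes -0.18), and the other genes 6 lower, while the calls over all genes went to 600 higher and 1589 lower, against 955 and 731. Without the variance trend the members gave 0 higher and 1 lower, and the other genes 1 higher and 0 lower. With the mean of all tested probe sets of a gene the members gave 0 higher and a median of 0.086, and the other genes 1 higher. Leaving out each array in turn gave 0 to 3 members higher, 1 to 3 lower and medians of -0.15 to 0.021, and 2 to 7 other genes higher and 0 to 6 lower. In those fits the lone array of a group is assumed to vary like the other group. The replicate numbers gave no sign of pairing, as deviations of same-numbered arrays correlated at r = 0.03 over 27022 probe sets. With 2 arrays a group, this cannot settle whether the samples were paired. With the number as a block the members gave 2 higher (Fdft1 added, adjusted p = 0.0327) and all genes 1415 higher and 1017 lower. Over single members, 411 values under an alternative kept their side of the threshold and their sign where called, 12 lost a call, 6 gained a call and none was called in the opposite direction. Among protein-coding genes alone, an alternative chosen after seeing the data, the sterol element matched in 1.20%, CCAAT in 39.5% and CACGTG in 7.61% of promoters. With 2 arrays a group, the residual spread rests on 2 degrees of freedom and the trend over all probe sets, and dim probe sets such as those of Mvk and Mvd have the widest intervals.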
